A study of Mus musculus with 3 samples.

Results

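The genes described here are 29 genes that cells use to copy their DNA in S phase, of 28692 genes in the deposited tables. They were taken by gene symbol, with no cut on a measured value. Earlier results of these data were known when the genes were chosen. Their levels were measured by sequencing RNA from single cells, with the 10x Chromium 3′ kit of version 3, in small intestinal crypts from adult C57BL/6 mice of 2 to 3 months, digested in 3x TrypLE for 1 hour, with 4000 to 5000 cells harvested for each library. The Rescue library came from Olfm4-IRES-eGFPCreERT2; CDC42flox/flox mice that were also Yapflox/flox and Tazflox/+, the KO library from Olfm4-IRES-eGFPCreERT2; CDC42flox/flox mice and the Het library, the control, from Olfm4-IRES-eGFPCreERT2; CDC42+/flox mice. All 3 genotypes carry the Cre, which is driven from *Olfm4*, a gene of crypt base stem cells, and is active only with an oestrogen-receptor ligand. Het mice carry 1 floxed *Cdc42* allele and 1 wild-type one, and Rescue mice carry 1 wild-type *Taz* allele. Each genotype had 1 library, and the labels do not give the number of animals behind it, so no difference below has a replicate check and no test was possible. Intervals are exact 95% intervals that cover counting error only.

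Before S phase the MCM2-7 complex, the helicase that unwinds DNA, is loaded on replication origins by the origin recognition complex with CDC6 and CDT1, and in S phase CDC45 and the GINS complex switch it on. Most of these genes are transcribed around the G1/S transition under E2F transcription factors. In the crypt, *Lgr5*-expressing stem cells and the transit-amplifying cells above them divide, and their descendants leave the cell cycle as they differentiate. The 29 genes were grouped as 6 helicase subunits (*Mcm2* to *Mcm7*), 5 genes of licensing and helicase activation (*Cdc6*, *Cdc45*, *Gins2*, *Dtl*, *Gmnn*), 6 of synthesis and protection at the fork (*Pcna*, *Fen1*, *Prim1*, *Pola1*, *Tipin*, *Clspn*), 3 of deoxynucleotide supply (*Tyms*, *Rrm1*, *Rrm2*), 4 of chromatin and histone mRNA (*Chaf1b*, *Uhrf1*, *Hells*, *Slbp*), 3 of DNA repair (*Ung*, *Brip1*, *Exo1*) and 2 E2F factors (*E2f1*, *E2f8*).

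Epithelial barcodes had 2 or more *Epcam* UMIs (unique molecular identifiers, 1 per captured transcript) and no *Ptprc* UMI. They also had 500 or more genes, 1000 or more UMIs in all, and no more than 20% of UMIs from mitochondrial genes. They numbered 726 in the Rescue library, 1504 in the KO library and 515 in the Het library, with a median of 46115, 41467 and 33401 UMIs. The mitochondrial limit alone removed 38.3% of Rescue, 54.1% of KO and 66.3% of Het barcodes. Between 3 and 11 barcodes were shared by any pair of libraries, and 0 were shared among epithelial barcodes. *Cdc42* was not lower in the library labelled KO: it stood at 383 CPM (UMI counts scaled to 1000000 per library and class) in Rescue, 384 CPM in KO and 249 CPM in Het cells. These are 3′ tags, and the sources used here do not say which exons are floxed, so this neither checks nor contradicts the labels. *Yap1* stood at 20.4, 24.6 and 26.4 CPM and *Wwtr1*, which encodes TAZ, at 2.86, 13.3 and 7.33 CPM in Rescue, KO and Het cells.

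Epithelial barcodes were split into 3 classes. The Lgr5-positive class had at least 1 *Lgr5* UMI, the Mki67 class had none and at least 2 UMIs of *Mki67*, a gene of cycling cells, and the other class held the rest. The Mki67 class held 27.7% (24.5 to 31.1%) of Rescue, 13.5% (11.8 to 15.3%) of KO and 8.54% (6.28 to 11.3%) of Het barcodes. The Lgr5-positive class held 9.64% of Rescue, 1.13% of KO and 30.5% of Het barcodes, which is 70, 17 and 157 cells. The other class held 62.7% of Rescue, 85.4% of KO and 61.0% of Het barcodes. These shares depend on depth: with every cell thinned to 5000 UMIs, the Mki67 class held 8.41%, 4.42% and 3.23% and the Lgr5-positive class 4.05%, 0.533% and 15.01% of Rescue, KO and Het cells.

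Over all epithelial barcodes the 29 genes were lower in KO cells than in the other 2 libraries. Their summed level was 823 CPM in Rescue, 363 CPM in KO and 734 CPM in Het cells. KO cells were 2.02-fold (1.98 to 2.07) lower than Het cells, and Rescue cells were 2.27-fold (2.23 to 2.31) higher than KO cells. Rescue and Het cells were within 1.12-fold (1.10 to 1.14) of each other. In bulk sums of this kind, fewer cells of a type and less RNA per cell cannot be told apart, and the classes below separate them in part. Within the Mki67 class the summed level was 1254 CPM in Rescue, 1298 CPM in KO and 1161 CPM in Het cells, so that KO cells stood 1.12-fold (1.07 to 1.17) above Het cells. Within the Lgr5-positive class it was 1555, 1708 and 1140 CPM, and in the other class 268, 115 and 354 CPM, in Rescue, KO and Het cells. The KO library was thus the lowest over all barcodes and in the other class. By these sums it was the highest of the 3 in both remaining classes, but its order against Rescue there depends on the processing. In the Mki67 class Rescue was only 1.04-fold (1.01 to 1.06) lower than KO. The median log2 ratio of Rescue over KO was -0.04 there, and 0.02 with scaling by trimmed mean of M values (TMM). In the Lgr5-positive class that median was -0.16, and 0.19 with TMM scaling. In that class the summed level was highest in Rescue once barcodes rich in Paneth markers were left out.

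**Figure D1:**
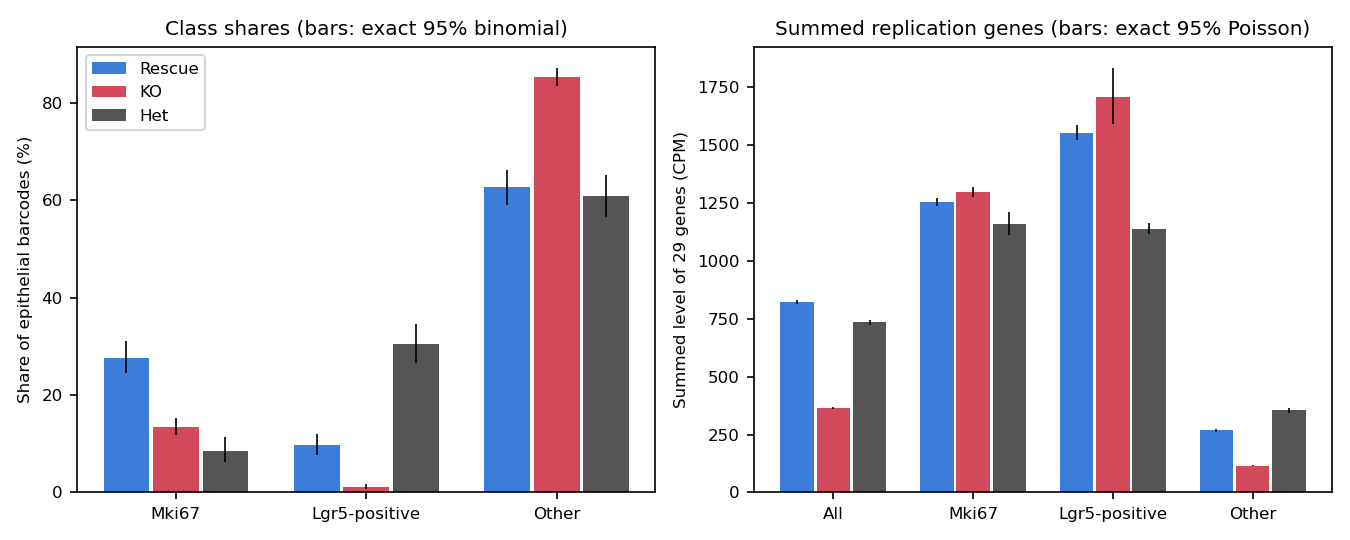
Left, share of epithelial barcodes in each class (%), with exact 95% binomial intervals; right, summed level of the 29 genes (CPM) over all epithelial barcodes and in each class, with exact 95% Poisson intervals, for the Rescue, KO and Het libraries. The KO bar is lowest over all barcodes (363 CPM) and in the other class (115 CPM) and highest in the Mki67 class (1298 CPM) and the Lgr5-positive class (1708 CPM). In the Mki67 and Lgr5-positive classes the order of KO and Rescue depends on the scaling.

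The helicase subunits form a hexamer in which each of the 6 genes supplies 1 part. *Mcm6* stood at 41.4 CPM (39.4 to 43.4) in Rescue, 16.4 CPM (15.4 to 17.5) in KO and 62.0 CPM (58.5 to 65.7) in Het cells. *Mcm2* stood at 21.7, 8.31 and 21.6 CPM, and *Mcm3* at 29.7, 17.5 and 34.3 CPM, in the same order. For these 3 genes the KO library was the lowest with no overlap of counting intervals. KO cells were 3.77-fold (3.46 to 4.11) lower than Het cells for *Mcm6* and 1.96-fold (1.78 to 2.17) lower for *Mcm3*, and the other 4 subunits lay between them. Rescue cells were 1.70-fold (*Mcm3*) to 2.61-fold (*Mcm2*) higher than KO cells. *Mcm6* was 1.5-fold (1.39 to 1.62) lower in Rescue than in Het cells.

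Promoter sequences are shown for *Mcm3*, *Mcm5* and *Mcm6*, whose windows hold E2F words, and for *Ung*, the gene with the largest KO over Het difference, whose window holds none. The windows run from 250 bases before to 50 bases after the start site, 5′ to 3′ on the gene's strand, and are credited to RefSeq on build GRCm38.p6. Capitals mark TTTCCCGC, TTTGGCGC, TTTCGCGC or TTTGCCGC on either strand, and words may overlap.
Mcm3, chr1:20820263-20820562, minus strand: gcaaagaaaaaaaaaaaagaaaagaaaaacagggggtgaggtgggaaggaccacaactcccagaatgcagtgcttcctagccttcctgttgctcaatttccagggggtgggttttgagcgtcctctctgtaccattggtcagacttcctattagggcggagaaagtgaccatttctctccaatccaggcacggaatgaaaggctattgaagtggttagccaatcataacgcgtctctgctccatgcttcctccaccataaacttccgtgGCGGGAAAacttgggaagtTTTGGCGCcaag
Mcm5, chr8:75109259-75109558, plus strand: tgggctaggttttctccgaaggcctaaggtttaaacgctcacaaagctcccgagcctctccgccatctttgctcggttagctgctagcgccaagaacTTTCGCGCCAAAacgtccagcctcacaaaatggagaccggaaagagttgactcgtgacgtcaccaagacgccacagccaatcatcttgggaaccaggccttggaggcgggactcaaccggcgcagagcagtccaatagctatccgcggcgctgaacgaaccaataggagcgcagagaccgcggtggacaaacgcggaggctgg
Mcm6, chr1:128359656-128359955, minus strand: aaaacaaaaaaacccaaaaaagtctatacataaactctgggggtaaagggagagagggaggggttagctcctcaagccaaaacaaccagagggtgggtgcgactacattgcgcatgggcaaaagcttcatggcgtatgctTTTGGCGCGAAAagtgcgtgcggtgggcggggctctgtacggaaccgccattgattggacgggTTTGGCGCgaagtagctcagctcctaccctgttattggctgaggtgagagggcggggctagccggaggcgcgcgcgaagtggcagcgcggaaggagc
Ung, chr5:114130185-114130484, plus strand: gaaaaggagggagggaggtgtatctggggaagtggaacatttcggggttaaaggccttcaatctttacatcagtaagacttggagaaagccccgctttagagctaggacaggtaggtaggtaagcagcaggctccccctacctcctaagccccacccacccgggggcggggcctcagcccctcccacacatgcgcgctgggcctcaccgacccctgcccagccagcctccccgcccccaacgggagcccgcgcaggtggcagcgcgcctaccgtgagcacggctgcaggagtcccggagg
Of the 29 genes 24 had a window, and 10 of these (41.7%) held at least 1 such word, against 704 of 27025 genes (2.61%) over the whole table. CCAAT, on either strand, was found in 17 of the 24 genes (70.8%), against 41.1% of all genes, and TTTGAA, a cell cycle element of G2/M genes, in 4 of 24 (16.7%), against 20.2% of all genes. These matches describe letters in the windows and say nothing about binding in these cells.

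Among the genes of licensing and activation, *Dtl*, which encodes the substrate receptor of a ubiquitin ligase that destroys CDT1, stood at 13.4 CPM in Rescue, 4.30 CPM in KO and 11.1 CPM in Het cells. *Cdc45* stood at 9.71, 2.92 and 6.42 CPM in Rescue, KO and Het cells. Both were lowest in KO cells, 2.57-fold (2.13 to 3.09) and 2.20-fold (1.73 to 2.79) under Het cells. *Gins2*, a subunit of GINS, stood at 16.8, 8.72 and 14.4 CPM, and *Cdc6* at 5.22, 3.96 and 5.71 CPM. *Gmnn*, which encodes the CDT1 inhibitor geminin, stood at 75.4 CPM in Rescue, 44.7 CPM in KO and 49.3 CPM in Het cells. It was only 1.10-fold (1.02 to 1.19) lower in KO than in Het cells and 1.69-fold (1.60 to 1.78) higher in Rescue than in KO cells; with scaling by trimmed mean of M values (TMM) the KO over Het difference of *Gmnn* turned to 0.29 on the log2 scale.

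At the fork, *Pcna*, the sliding clamp, stood at 58.8 CPM in Rescue, 33.4 CPM in KO and 33.6 CPM in Het cells. KO and Het cells did not differ beyond counting error for this gene, with an interval of 1.10-fold lower to 1.09-fold higher in KO cells. *Fen1*, the flap nuclease of Okazaki fragment maturation, stood at 36, 12.8 and 25.1 CPM in Rescue, KO and Het cells. *Prim1* (primase), *Pola1* (catalytic subunit of polymerase alpha) and *Tipin* (fork protection) were 2.58-fold, 2.87-fold and 2.88-fold lower in KO than in Het cells. *Clspn*, a mediator of the replication checkpoint, was 1.29-fold (1.08 to 1.54) lower, and TMM scaling turned this to 0.06 on the log2 scale. All 6 fork genes were higher in Rescue than in KO cells, by 1.76-fold (*Pcna*) to 2.97-fold (*Pola1*).

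The genes of deoxynucleotide supply were the role group with the smallest KO over Het differences. *Tyms*, the enzyme that makes thymidylate, stood at 66.2 CPM in Rescue, 26.5 CPM in KO and 38.4 CPM in Het cells. *Rrm1*, the large subunit of ribonucleotide reductase, stood at 39.2, 15.2 and 22.6 CPM. *Rrm2*, the small subunit, stood at 33.0, 16.7 and 15.1 CPM, the only one of the 29 genes with a KO level above the Het level, by 1.10-fold (0.965 to 1.26); with TMM scaling *Gmnn*, *Pcna* and *Clspn* also lay above it. All 3 were highest in Rescue cells, 1.72-fold (*Tyms*) to 2.18-fold (*Rrm2*) over Het cells.

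The 4 chromatin and histone genes were all lowest in KO cells. *Uhrf1*, which brings DNA methyltransferase to new DNA, stood at 27.8 CPM in Rescue, 9.0 CPM in KO and 27.0 CPM in Het cells. *Hells*, a chromatin remodeller, stood at 38.1, 14.9 and 42.3 CPM, and *Slbp*, which binds the stem-loop of histone mRNAs, at 77.2, 32.7 and 79.7 CPM. With *Chaf1b*, a subunit of the chromatin assembly factor, KO cells were 2.44-fold to 3.00-fold lower than Het cells over the 4 genes. Rescue and Het cells were within 1.11-fold of each other for all 4.

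Among the repair genes, *Ung*, the glycosylase that removes uracil from DNA, stood at 17.6 CPM (16.4 to 19.0) in Rescue, 5.41 CPM (4.84 to 6.03) in KO and 28.5 CPM (26.1 to 31.0) in Het cells. It had the largest KO over Het difference of the 29 genes, 5.26-fold (4.58 to 6.05) lower, and was 1.61-fold (1.44 to 1.81) lower in Rescue than in Het cells. *Exo1*, a 5′ exonuclease, stood at 6.85, 1.84 and 5.77 CPM, and *Brip1*, a helicase that works with BRCA1, at 7.91, 3.57 and 5.01 CPM. *E2f1*, an E2F activator, stood at 6.30 CPM in Rescue, 2.92 CPM in KO and 8.09 CPM in Het cells. *E2f8*, an E2F repressor, stood at 15.4, 4.37 and 6.52 CPM, with Rescue 2.35-fold (1.93 to 2.89) over Het cells. The 2 factors therefore differed in order: *E2f1* was highest in Het cells and *E2f8* in Rescue cells.

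Over all epithelial barcodes, 17 of the 29 genes were at least 2-fold lower in KO than in Het cells and 0 at least 2-fold higher, where 25.3% of the 12668 genes measured were lower and 10.8% higher by that size. A gene counted as measured if either library held 20 or more of its UMIs, and all 29 passed. The median over the 29 genes was -1.17 (counting interval -1.35 to -0.95) on the log2 scale with 1 CPM added, and -0.28 over all genes measured. Scaling by TMM moved every KO over Het ratio by 0.44 on the log2 scale and left 8 genes at least 2-fold lower. For Rescue over KO, 21 of 29 were at least 2-fold higher and 0 lower, where 22.7% of genes were higher, and the median was 1.23, against 0.26 over all genes. TMM scaling left 9 of them. For Rescue over Het, 2 of 29 (*Rrm2* and *E2f8*) were at least 2-fold higher, where 3.52% of genes were higher, and 0 were lower, where 11.6% were. Markers of other cell types moved with these sums. The 6 Paneth markers summed to 14232 CPM in Rescue, 887 CPM in KO and 81417 CPM in Het cells and the 10 enterocyte markers to 14993, 58339 and 22799 CPM, none of them at 0 in any library. Without barcodes that held 5% or more of their UMIs in Paneth markers, the median over the 29 genes was -1.40 for KO over Het and -0.14 for Rescue over Het, against 0.04 for Rescue over Het with them. The part of these cells in the result was not tested further. The same KO library entered KO over Het and Rescue over KO, and was the lower library by the median in each. These counts are therefore not separate pieces of evidence.

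The class mix moved with these differences. With the CPM of each class weighted by the Het library's class shares of UMIs, the KO over Het median was 0.26 and the Rescue over KO median -0.043 on the log2 scale. That weight was 38.0% for the Lgr5-positive class, which in KO rests on 17 cells and 0.737% of KO UMIs. Of the member UMIs, 58.3% of Rescue, 71.4% of KO and 16.0% of Het UMIs lay in the Mki67 class. The Lgr5-positive class held 26.1%, 3.47% and 58.9%, and the other class 15.6%, 25.2% and 25.04%, of the Rescue, KO and Het member UMIs. Replication gene UMIs thus came mostly from the Mki67 class in the KO and Rescue libraries, and mostly from the Lgr5-positive class in the Het library. The Lgr5-positive class also took cells with at least 2 *Mki67* UMIs, 46 in Rescue, 10 in KO and 33 in Het. In the Het library those cells held 1985007 UMIs of all genes, against 1880234 in the Mki67 class.

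**Figure D2:**
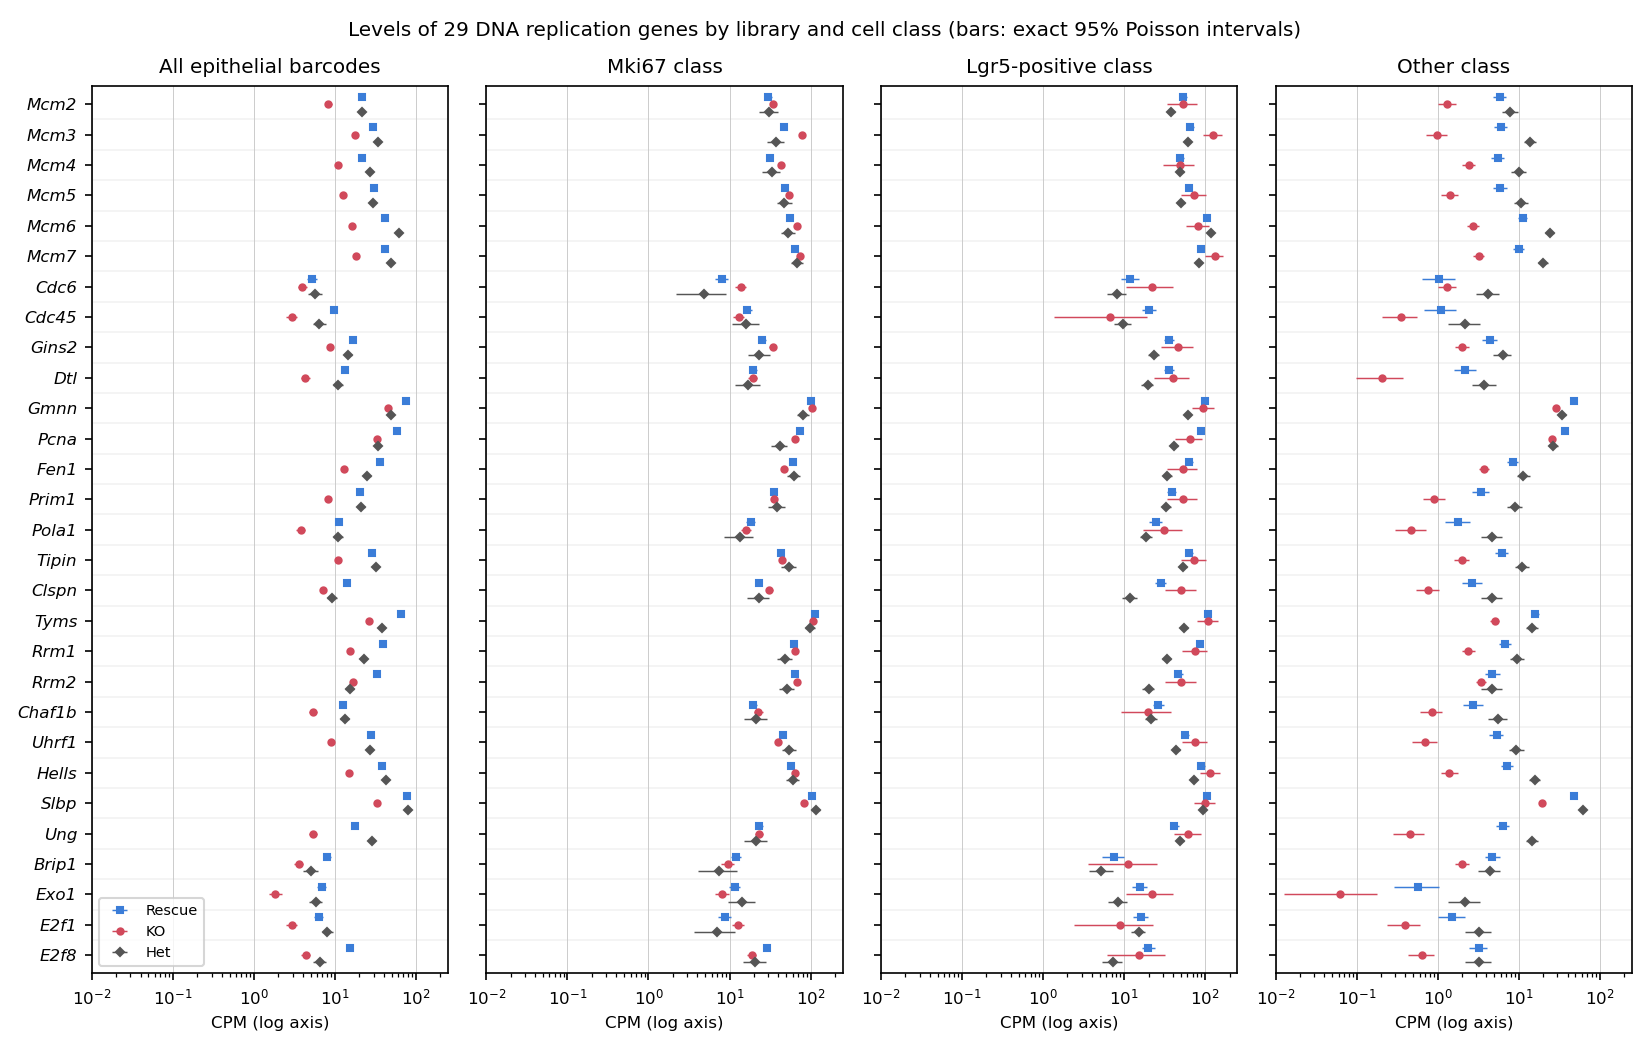
Level of each of the 29 genes (CPM, log axis) in the Rescue, KO and Het libraries over all epithelial barcodes and in the 3 classes, with exact 95% Poisson intervals as bars. In the Mki67 class the points of the 3 libraries lie close together, and in the other class the KO points lie lowest for all genes but *Cdc6*.

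Within the Mki67 class, levels were compared among 201 Rescue, 203 KO and 44 Het cells with a median of 64145, 51716 and 42539 UMIs. Here 2 of 29 genes, *Mcm3* and *Cdc6*, were at least 2-fold higher in KO than in Het cells, where 7.63% of genes were higher by that size, and 0 were lower, where 8.12% were. *Mcm3* stood at 46.4 CPM (43.1 to 49.99) in Rescue, 79.0 CPM (74.1 to 84.1) in KO and 37.2 CPM (29 to 47.0) in Het cells. It was thus highest in KO cells, 2.12-fold (1.66 to 2.74) over Het cells, and Rescue cells were 1.70-fold (1.54 to 1.88) lower than KO cells. *Cdc6* stood at 8.06, 13.8 and 4.79 CPM in the same order, the Het value resting on 9 UMIs. The other 5 helicase subunits were 1.10-fold to 1.3-fold higher in KO than in Het cells, and only the interval of *Mcm6* (1.06 to 1.62) left out 1.

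Intervals lay above 1 for 9 of the 29 genes and below 1 for 4 in the Mki67 class of KO over Het. Of all 10501 genes measured there, 2109 had intervals above 1 and 2403 below 1. Among the 29 genes, *Pcna* (1.53-fold, 1.21 to 1.96), *E2f1* (1.84-fold, 1.05 to 3.54), *Gins2*, *Gmnn*, *Rrm1* and *Rrm2* also lay above 1. Those below were *Slbp* (1.39-fold lower, 1.19 to 1.61), *Uhrf1* (1.37-fold lower), *Fen1* (1.32-fold lower) and *Exo1* (1.76-fold lower). *Ung*, which had the lowest KO over Het ratio over all barcodes, stood at 23.1 CPM in Rescue, 23.0 CPM in KO and 21.3 CPM in Het cells of this class, and the 3 did not differ beyond counting error. The median over the 29 genes was 0.18 (-0.18 to 0.60) on the log2 scale. The enterocyte markers summed to 2578, 10349 and 5402 CPM and the goblet markers to 1163, 1820 and 3988 CPM in the Rescue, KO and Het cells of this class, all 7 goblet markers detected in each and *Lct* of the 10 enterocyte markers at 0 in KO. Their part in these ratios was not tested.

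For Rescue over KO in the Mki67 class, 0 of 29 genes reached 2-fold, where 6.41% of genes were higher and 7.22% lower by that size, and the median was -0.04. Highest were *E2f8*, at 28.9 CPM in Rescue and 18.8 CPM in KO cells (1.54-fold, 1.31 to 1.81), and *Exo1*, at 11.5 and 8.16 CPM (1.41-fold, 1.10 to 1.82). Lowest were *Cdc6* (1.71-fold lower, 1.35 to 2.18), *Mcm3* and *E2f1* (1.46-fold lower, 1.15 to 1.86). All 6 helicase subunits were lower in Rescue than in KO cells, by 1.12-fold to 1.70-fold. For Rescue over Het in this class 0 of 29 reached 2-fold, where 4.18% were higher and 5.96% lower, and *Pcna*, at 75.1 CPM in Rescue and 41.5 CPM in Het cells, was highest (1.81-fold, 1.44 to 2.31).

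The G2/M genes, which serve mitosis, had another order of libraries in this class. Their summed level, over 37 genes without *Mki67*, was 4443 CPM in Rescue, 3354 CPM in KO and 5260 CPM in Het cells. The 29 genes therefore stood at 0.282, 0.387 and 0.221 of the summed G2/M level in Rescue, KO and Het cells of the Mki67 class. The ratio was highest in KO cells of this class only. In the Lgr5-positive class it was 0.461, 0.723 and 1.19, and in the other class 1.03, 1.10 and 1.38, in the same order of libraries. Het cells were highest in both of those classes. Within each library the 29 genes varied together from cell to cell: the Spearman correlation of a gene with the sum of the other 28 had a median of 0.69 over 201 Rescue cells, 0.70 over 203 KO cells and 0.52 over 44 Het cells. The sum correlated with the G2/M sum at 0.21, 0.41 and -0.01 in Rescue, KO and Het cells. These correlations are descriptions, and cells of 1 library share its depth and free RNA.

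The Lgr5-positive class held cells that differed in kind between the libraries. *Mki67* was at 2 or more UMIs in 46 of 70 Rescue cells (65.7%), 10 of 17 KO cells (58.8%) and 33 of 157 Het cells (21.0%). After thinning to 5000 UMIs, *Mki67* was detected in 41.4% of Rescue, 41.2% of KO and 16.6% of Het cells of this class. The 6 Paneth markers summed to 72610 CPM in Rescue, 153 CPM in KO and 118321 CPM in Het cells, with *Defa17* and *Ang4* at 0 in KO cells. Barcodes with 5% or more of their UMIs in Paneth markers numbered 7 Rescue, 0 KO and 24 Het cells in this class, and without them the summed level of the 29 genes was 1833, 1708 and 1558 CPM, so that Rescue, not KO, was highest.

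In this class *Rrm1* stood at 85.4 CPM in Rescue, 75.1 CPM in KO and 33.6 CPM in Het cells, and *Clspn* at 28.3, 50.8 and 11.8 CPM. Both were lowest in Het cells, with KO 2.23-fold (1.51 to 3.21) and 4.31-fold (2.59 to 6.91) higher. *Ung* stood at 41.8, 61.9 and 49.1 CPM and *Slbp* at 106, 99.5 and 94.7 CPM, with KO and Het not apart beyond counting error. *Mcm6* stood at 105, 81.8 and 117 CPM in Rescue, KO and Het cells and was 1.43-fold (1.03 to 2.04) lower in KO than in Het cells, unlike *Mcm3* and *Mcm7*, which were 2.01-fold and 1.55-fold higher. Of the 29 genes 10 were at least 2-fold higher in KO than in Het cells and 0 lower, where 14.0% of genes were higher and 11.5% lower, with a median of 0.64 (0.01 to 1.23); without the Paneth-high barcodes 2 were higher and 2 lower, and the median was 0.23. TMM scaling, which moved every ratio by -0.41, left 2 higher and 1 lower.

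For Rescue over Het in the Lgr5-positive class 6 of 29 were at least 2-fold higher, *Cdc45*, *Pcna*, *Clspn*, *Rrm1*, *Rrm2* and *E2f8*, where 4.18% of genes were higher, and 0 were lower, where 5.98% were. The median was 0.43 (0.11 to 0.73). When cells with both *Lgr5* and at least 2 *Mki67* UMIs were counted in the Mki67 class, the median over those left was -0.23. Rescue over KO had 1 of 29 at 2-fold or more, *Cdc45*, where 9.61% of genes were higher, and 0 lower, where 10.3% were; it rests on 3 KO UMIs (3.07-fold, 1.02 to 15.1).

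Outside both of those classes, most replication genes stood at much lower levels in KO than in Het cells. *Ung* stood at 6.34 CPM (5.26 to 7.58) in Rescue, 0.452 CPM (0.283 to 0.685) in KO and 14.8 CPM (12.4 to 17.4) in Het cells. *Mcm3* stood at 5.98, 0.987 and 13.8 CPM, and *Dtl* at 2.20, 0.206 and 3.74 CPM, in Rescue, KO and Het cells. All 3 were lowest in KO and highest in Het cells, with no overlap of intervals between KO and either other library. KO cells were 32.6-fold (20.7 to 53.7) lower than Het cells for *Ung*, 18.2-fold (8.84 to 41.1) for *Dtl* and 14.0-fold (10.0 to 19.9) for *Mcm3*. *Uhrf1* was 13.4-fold and *Hells* 11.3-fold lower, and *Exo1*, with 3 UMIs in KO cells, 35.4-fold (10.6 to 185) lower.

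The exceptions in the other class were *Gmnn*, *Pcna* and *Rrm2*. *Gmnn* stood at 47.6, 29.2 and 34.6 CPM, *Pcna* at 37.2, 25.5 and 26.7 CPM and *Rrm2* at 4.72, 3.43 and 4.67 CPM in Rescue, KO and Het cells. KO cells were 1.18-fold (1.05 to 1.33), 1.05-fold (0.912 to 1.20) and 1.36-fold (0.957 to 1.90) lower than Het cells for the 3 genes, and TMM scaling turned *Gmnn* to 0.25 on the log2 scale. *Slbp* stood at 48.1, 19.4 and 61.8 CPM, so that KO cells still held a sizeable level. *Gmnn*, *Pcna* and *Slbp*, grouped after their values were seen, gave 49.7% of Rescue, 64.3% of KO and 34.7% of Het member UMIs in this class. The other 26 genes summed to 135 CPM in Rescue, 41.2 CPM in KO and 231 CPM in Het cells.

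In the other class 26 of 29 genes were at least 2-fold lower in KO than in Het cells and 0 higher, where 28.8% of genes were lower and 9.81% higher, with a median of -1.68 (-2.00 to -1.35), against -0.33 over all genes, and TMM scaling, which moved every ratio by 0.50, left 25 lower. For Rescue over KO 24 of the 28 measured genes were at least 2-fold higher and 0 lower, where 21.8% were higher and 11.2% lower, with a median of 1.20; *Exo1* was under 20 UMIs in both libraries. For Rescue over Het 11 of 29 were at least 2-fold lower, where 12.4% of genes were, and 0 higher, where 2.63% were, with a median of -0.71; TMM scaling left 6 lower. *Cdc6*, at 1.05 CPM in Rescue, 1.32 CPM in KO and 4.16 CPM in Het cells, was the only gene lower in Rescue than in KO cells, and that ratio's interval (2.19-fold lower to 1.33-fold higher) included 1. The enterocyte markers of this class summed to 28641 CPM in Rescue, 70959 CPM in KO and 40845 CPM in Het cells, the goblet markers to 11358, 25714 and 11444 CPM and the Paneth markers to 8633, 1092 and 69885 CPM, with none of the markers at 0. *Olfm4* stood at 5.14 CPM in Rescue, 0.863 CPM in KO and 20.2 CPM in Het cells, and *Mki67* stood at 2.94, 1.87 and 3.64 CPM. The part of these cells in the result was not tested.

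**Figure D3:**
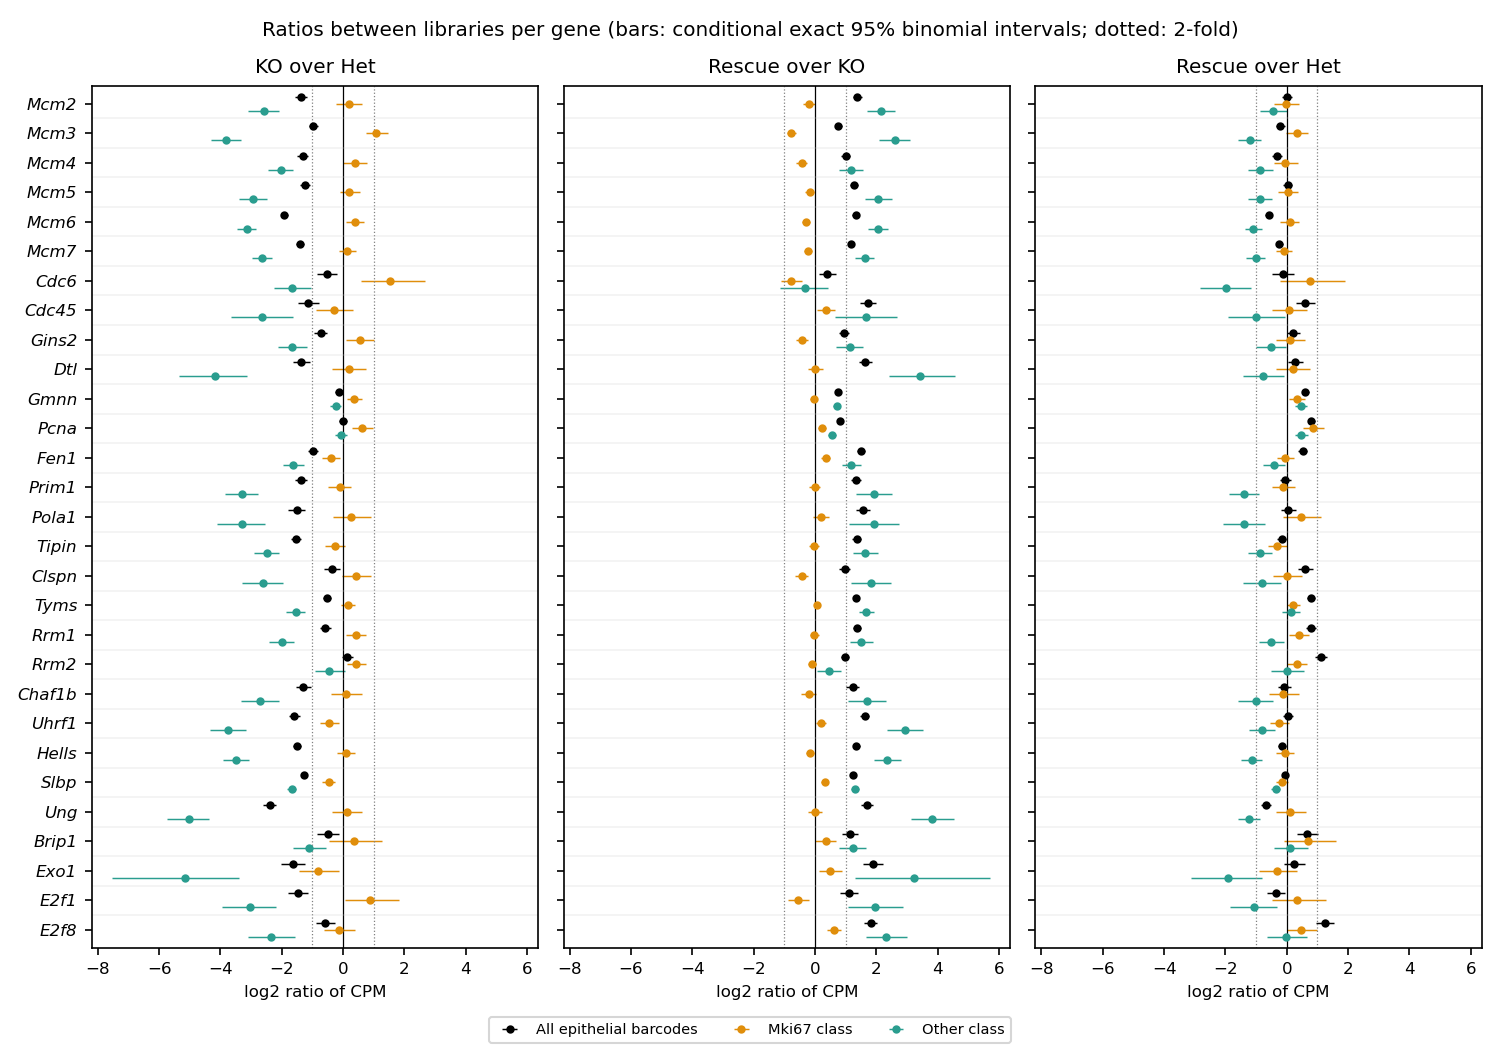
Log2 ratio of CPM for each of the 29 genes in KO over Het, Rescue over KO and Rescue over Het, over all epithelial barcodes, in the Mki67 class and in the other class, with conditional exact 95% binomial intervals as bars and dotted lines at 2-fold. In KO over Het the ratios of the other class lie left of those of the Mki67 class for all 29 genes, furthest for *Exo1* and *Ung*.

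Counted per cell, replication UMIs showed the same division by class. With each cell thinned to 5000 UMIs, which left out 60 Rescue, 191 KO and 82 Het epithelial cells below that depth, Mki67-class cells held a median of 4 member UMIs in Rescue, 5 in KO and 4 in Het. Lgr5-positive cells held a median of 7, 8 and 4, and cells of the other class 1, 0 and 1. Cells with at least 5 member UMIs made up 49.0% (41.8 to 56.2%) of Rescue, 56.2% (49.0 to 63.1%) of KO and 39.5% (25 to 55.6%) of Het cells in the Mki67 class, and these intervals overlap. In the other class they made up 5.53%, 1.01% and 11.7% of Rescue, KO and Het cells. Immune barcodes with *Ptprc* and no *Epcam*, whose median depth before thinning was 5891, 9857 and 5700.5 UMIs against 43608, 44304 and 39481 UMIs in the other class, reached that count in 9.55%, 15% and 19.3% of Rescue, KO and Het cells. The member sum of these immune barcodes was 577, 587 and 577 CPM, and how much of it is free RNA was not tested. At a cut of 8 member UMIs the other class stood at 4.02%, 0.549% and 7.95% and the immune barcodes at 4.52%, 10% and 2.27% of Rescue, KO and Het cells, so the order of the 2 kinds of barcode depends on the cut in the Het library. KO was the lowest of the 3 libraries in the other class at both cuts. The cut is a point in a range: at the cut or 1 UMI below it lay 50 of 666 Rescue, 44 of 1313 KO and 38 of 433 Het epithelial cells.

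**Figure D4:**
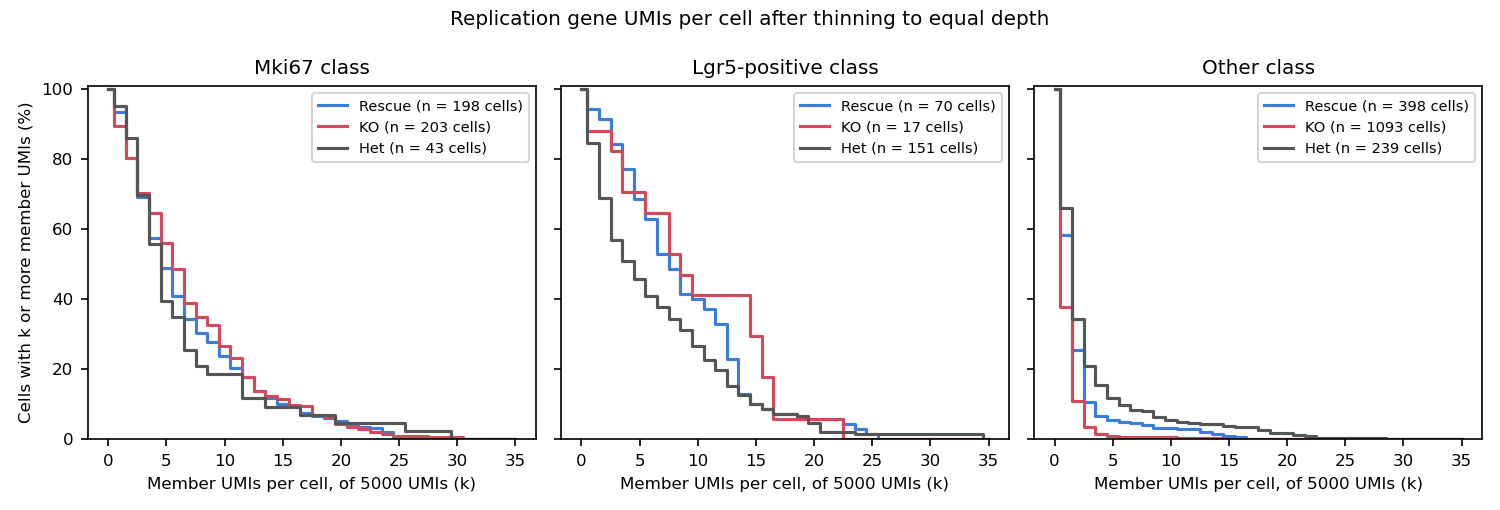
Share of cells (%) with at least k UMIs of the 29 genes among 5000 UMIs per cell, for the Rescue, KO and Het libraries in each class. In the Mki67 class the lines lie close at 3 UMIs (69.2% of Rescue, 70.4% of KO and 69.8% of Het cells). At 5 UMIs they lie apart (49.0%, 56.2% and 39.5%), with overlapping intervals. The Het line runs lowest over most of the Lgr5-positive class, and the KO line runs lowest in the other class.

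Of the epithelial cells with at least 5 member UMIs, the Mki67 class held 58.1% of 167 Rescue, 83.2% of 137 KO and 14.9% of 114 Het cells. The Lgr5-positive class held 28.7%, 8.76% and 60.5%, and the other class 13.2%, 8.03% and 24.6%. Over all epithelial cells, 25.1% of Rescue, 10.4% of KO and 26.3% of Het cells reached 5 member UMIs. The KO share was below the other 2, whose intervals (21.8 to 28.5% in Rescue and 22.2 to 30.7% in Het) overlap.

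Other genes of the same processes were read from 5 further lists. Over all epithelial barcodes, 15 of 58 other replication genes, 12 of 31 measured G1/S regulators, 14 of 31 nucleotide synthesis genes and 16 of 33 checkpoint and repair genes were at least 2-fold lower in KO than in Het cells. Of the G2/M genes 2 of 38 were, and of all genes measured 25.3%, so the other replication genes stood near the share of all genes. For Rescue over KO, 28, 17, 14 and 25 genes of those 4 lists and 33 of 38 G2/M genes were at least 2-fold higher, where 22.7% of all genes were. For Rescue over Het, 27 of 38 G2/M genes and 2 of the 29 replication genes were at least 2-fold higher, where 3.52% of all genes were.

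In the Mki67 class the other replication genes were mostly level in KO over Het, with 5 of 58 at least 2-fold higher and 1 lower, where 7.63% of all genes were higher and 8.12% lower. The lower one was *Rpa3*, a subunit of the single-strand binding protein RPA, at 97.9 CPM in Rescue, 39.2 CPM in KO and 96.3 CPM in Het cells. KO cells were 2.45-fold (2.06 to 2.92) lower than Het cells for it, and Rescue cells 2.50-fold (2.25 to 2.77) higher than KO cells. *Pold4*, the small subunit of polymerase delta, went the other way, at 20.7, 43.2 and 16.5 CPM, and so was highest in KO cells. *Donson*, a helicase activation factor, was 3.24-fold (1.67 to 7.19) higher in KO than in Het cells and *Chtf18*, of a clamp loader, 1.68-fold lower. *Gins4* was 1.46-fold lower and *Cdc7*, a kinase that fires origins, 1.55-fold higher in Rescue than in KO cells.

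Among G1/S regulators 5 of 30 measured genes were at least 2-fold lower and 1 higher in KO than in Het cells of the Mki67 class, against the same 8.12% and 7.63% of all genes. *Ccnd2*, cyclin D2, stood at 192 CPM in KO and 433 CPM in Het cells (2.26-fold lower, 2.08 to 2.45), and *Cdk6*, its partner kinase, was 2.59-fold (2.07 to 3.23) lower. *Ccne1*, cyclin E1, was 1.76-fold (1.07 to 3.08) higher, and *E2f7* 2.18-fold (0.891 to 6.92) higher. In Rescue over KO *Ccnd1*, cyclin D1, stood at 162 CPM in Rescue and 80.0 CPM in KO cells (2.02-fold, 1.88 to 2.18). *Cdkn1a*, the p21 inhibitor of cyclin-dependent kinases, was 1.95-fold (1.80 to 2.12) lower in Rescue than in KO cells. *Mycn*, at 2.49 CPM in Rescue and 0.734 CPM in KO cells, was 3.39-fold (1.61 to 7.97) higher, and *Ccne2* 1.22-fold (0.971 to 1.54) lower.

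Of the nucleotide synthesis genes 1 of 31, *Impdh1* of guanine nucleotide synthesis, was at least 2-fold higher in KO than in Het cells of the Mki67 class, and 0 lower, against 7.63% and 8.12% of all genes. It stood at 6.22 CPM in Rescue, 15.5 CPM in KO and 6.91 CPM in Het cells. *Nme1*, a nucleoside diphosphate kinase, was 1.90-fold (1.76 to 2.05) higher and *Ctps2* and *Samhd1* were 1.64-fold and 1.46-fold lower in KO than in Het cells. *Cad*, of pyrimidine synthesis, was 1.75-fold lower, and *Tk1* and *Pfas* 1.22-fold and 1.34-fold higher, in Rescue than in KO cells. Of 33 checkpoint and repair genes 1, *Fancb*, was at least 2-fold lower in KO than in Het cells (2.34-fold, 1.17 to 4.41), where 8.12% of all genes were, and the checkpoint kinase *Atr* was 1.78-fold lower. *Chek1* and *Fanca* were 1.5-fold and 1.65-fold higher, with intervals that include 1. In Rescue over KO *H2afx*, the histone H2A.X, was 2.02-fold (1.88 to 2.16) and *Rmi2* 1.91-fold higher, and *Fanca* and *Wee1* were 1.55-fold and 1.32-fold lower.

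Of the G2/M genes 8 of 38 were at least 2-fold lower and 0 higher in KO than in Het cells of the Mki67 class, where 8.12% of all genes were lower and 7.63% higher. Their median was -0.49, against 0.18 for the 29 replication genes and -0.04 over all genes measured. *Hmgb2* stood at 750 CPM in KO and 1663 CPM in Het cells (2.22-fold lower, 2.13 to 2.31), and *Nuf2*, of the kinetochore, was 2.96-fold (2.15 to 4.05) lower. *Cdk1* and *Prc1* went against this, 1.56-fold and 1.40-fold higher. In Rescue over KO *Nusap1* and *Aurkb*, a mitotic kinase, were 1.91-fold and 1.83-fold higher, and *Cdca8* and *Cdc25c* 1.29-fold and 1.25-fold lower.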

How the data were processed

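Single-cell libraries of small intestinal crypts, 1 each for Rescue, KO and Het, were analysed from the deposited matrices, in which the authors give the count of UMIs per gene and barcode. Cell Ranger made them: the submitters' processing notes name version 1.3.0, whereas the file headers name 3.1.0 for Rescue and 3.0.2 for KO and Het. Genome build and annotation are not given in the sources used here. The libraries held 3449 Rescue, 4786 KO and 6152 Het barcodes with 64355665, 85525811 and 58433966 UMIs.

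The 29 genes and the further lists were chosen with earlier results of these data known. Groups followed the labels. Counts were summed per library and class and scaled to CPM over all UMIs of the class, with exact 95% Poisson intervals; ratios carry conditional exact 95% binomial intervals, and shares exact binomial (Clopper-Pearson) ones. Log2 ratios used a pseudocount of 1 CPM. A gene was measured if either library held 20 or more of its UMIs, and was counted as higher or lower past 2-fold. With 1 library per genotype no test was possible. Doublets were kept, and their removal was tried as an alternative. Thinning drew 5000 UMIs per cell. All 29 genes are named, and of each further list the 2 highest and 2 lowest in KO over Het and in Rescue over KO of the Mki67 class; *Epcam*, *Ptprc*, *Lgr5*, *Mki67*, *Cdc42*, *Yap1* and *Wwtr1* are named because the classes or genotypes rest on them, and *Olfm4*, the Cre's gene, was added after its values were seen. Promoter windows come from RefSeq (GRCm38.p6). Simulated data with known folds were used to test the ratios. Python 3.11.15 with numpy 2.4.6, scipy 1.17.1 and pandas 2.3.3 was used, and R 4.3.3 with edgeR 4.0.16 for TMM factors only.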

Additional observations from a re-analysis of the deposited data

Results flagged for a closer look

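Among genes with at least 20 UMIs in both libraries of both classes, 4 of the 29 lay past 2-fold in opposite directions of KO over Het in classes of cells, and none of these differences between classes was tested. The share of all genes that did so was not computed, so the count is not read as particular to the 29 genes. Taken class by class, many of all genes measured passed 2-fold in KO over Het. In the Lgr5-positive class 14.0% and in the Mki67 class 7.63% were higher, and in the other class 28.8% were lower. The Lgr5-positive class held 17 KO cells. With TMM scaling, or without Paneth-high barcodes, 2 of the 29 genes stayed at least 2-fold higher in KO cells of that class. *Mcm3* was 2.12-fold higher in KO cells of the Mki67 class and 14.0-fold lower in KO cells of the other class, a gap of 3.96 on the log2 scale. Against the Lgr5-positive class, where it was 2.01-fold higher in KO cells, the gap was 3.90. *Gins2* (2.01-fold higher in the Lgr5-positive class, 3.15-fold lower in the other class), *Clspn* (4.31-fold and 6.15-fold) and *Rrm1* (2.23-fold and 4.01-fold) had gaps of 2.26, 3.71 and 2.78 on the log2 scale between the same classes. On fewer UMIs, *Cdc6*, *Dtl*, *Brip1*, *Exo1* and *E2f8* also lay past 2-fold higher in KO cells of the Lgr5-positive class and past 2-fold lower in those of the other class.

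The 29 genes were also detected in barcodes outside the comparisons. In immune barcodes with *Ptprc* and no *Epcam* their summed level was 577 CPM in Rescue, 587 CPM in KO and 577 CPM in Het cells, over cells of unlike makeup. T cell markers summed to 22131, 9099 and 28045 CPM and myeloid markers to 1713, 20259 and 236 CPM in the Rescue, KO and Het immune barcodes. In epithelial barcodes over the mitochondrial limit it was 191 CPM in Rescue, 87.4 CPM in KO and 258 CPM in Het cells, with KO lowest as in the barcodes that were kept.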

How the results depend on the processing

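No paired analysis was possible because each genotype has 1 library and no result comes from a test; for the same reason no library could be left out. Of the 146 median values recomputed, 119 stayed within the counting interval of the value reported, and 27 left it. The sign differed in 20, of which 18 had a reported median within 2-fold. The other 2 came with the class mix fixed at Het: the median of all epithelial barcodes became 0.26 for KO over Het and -0.043 for Rescue over KO, on the log2 scale, and by construction this removes what class shares contribute. That fixed mix also gives the 17 KO cells of the Lgr5-positive class a weight of 38.0%. Over all epithelial barcodes, KO over Het became -0.78 with TMM scaling, -0.79 with a pseudocount of 5 CPM, -0.49 with a stricter cell filter, -1.46 in cells of 30000 to 90000 UMIs and -1.40 without Paneth-high barcodes, the last 2 being alternatives chosen after seeing the data. Rescue over KO became 0.88 with TMM scaling, 1.43 without mitochondrial and ribosomal protein UMIs, 0.95 with a pseudocount of 5 CPM, 1.41 with the stricter filter, 1.10 with each cell weighted equally and 1.09 with thinned cells. Rescue over Het became 0.87 with the stricter filter, -0.17 with cells weighted equally, -0.18 with thinned cells, -0.40 in the depth window and -0.14 without Paneth-high barcodes. In the Mki67 class Rescue over KO became 0.52 with the stricter filter and 0.13 with a cut of 1 *Mki67* UMI. In the Lgr5-positive class Rescue over KO became -0.88 with the stricter filter, KO over Het -0.19 with thinned cells (6 genes measured), and Rescue over Het -0.50 with thinned cells and -0.23 with cells of at least 2 *Mki67* UMIs moved to the Mki67 class; thinning left no gene measured for Rescue over KO there. In the other class a pseudocount of 5 CPM gave -0.91 for KO over Het and 0.58 for Rescue over KO, and thinning gave -0.19 for Rescue over Het. Counts of genes past 2-fold over all barcodes were 8 lower with TMM scaling and 4 with the stricter filter for KO over Het (17 reported), and 9 higher with TMM scaling for Rescue over KO (21 reported).
With the class mix fixed at Het, single genes past 2-fold changed direction. For KO over Het these were *Mcm2* (0.17), *Mcm5* (0.20), *Mcm7* (0.25), *Dtl* (0.59), *Prim1* (0.19), *Pola1* (0.30), *Tipin* (0.067), *Uhrf1* (0.28), *Hells* (0.26) and *Exo1* (0.60). For Rescue over KO they were *Mcm5* (-0.092), *Mcm7* (-0.36), *Dtl* (-0.043), *Prim1* (-0.26), *Pola1* (-0.16), *Tipin* (-0.069), *Uhrf1* (-0.18), *Hells* (-0.22), *Ung* (-0.27) and *Exo1* (-0.29). In the Lgr5-positive class *Rrm2* became -0.012 in Rescue over Het with the stricter filter, and with cells of at least 2 *Mki67* UMIs moved out, *Exo1* became -2.47 in KO over Het and *Cdc45* -0.26, *Rrm1* -0.018 and *Rrm2* -0.035 in Rescue over Het; the cause was not tested. The stricter filter left 131 Rescue, 771 KO and 144 Het cells. Depth limits *Cdc6* and *E2f1* most in Het cells of the Mki67 class and every gene in the 17 KO cells of the Lgr5-positive class.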
